A study of Mus musculus with 8 samples.

Results

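The 10 genes described here are regulators of the mesoderm and endoderm, and they were chosen by name: *T*, *Eomes*, *Mixl1*, *Mesp1*, *Evx1*, *Fgf8*, *Gata2*, *Gata3*, *Gata4* and *Gata6*. A row of the count table matched 9 of them by Entrez identifier, out of 21950 genes in all, and *Gata6* was not analysed here. Gene positions below are those of RefSeq on GRCm38.p6. The 9 genes were compared between primordial germ cell-like cells (d6PGCLCs) and primordial germ cells of female embryos at E12.5 (E12.5 PGCs), each measured by bulk RNA-seq in 4 pools from independent experiments. The d6PGCLCs were made in culture from the BVSC-iPSC line, a mouse induced pluripotent stem cell line that carries the Blimp1-Venus and Stella-ECFP reporters. They were collected at day 8 of the culture, which is PGCLC day 6, by a protocol that sorts for both reporters or for both SSEA1 and integrin β3. Which of these sorts was used for the pools is not given. The PGCs were sorted for SSEA1 and integrin β3 from the gonads of inbred C57BL/6J fetuses. All d6PGCLC libraries came from the BVSC-iPSC line, so that cell line, culture, developmental stage, strain and, if it differed, sorting scheme cannot be told apart in this comparison.

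Germ layers are the first tissues of the embryo, and they form at gastrulation when epiblast cells move through the primitive streak. *T* and *Eomes* encode T-box transcription factors of the streak, *Mixl1* and *Evx1* encode homeobox factors that respond to Nodal, Wnt and Bmp signals there, *Mesp1* encodes a basic helix-loop-helix factor of the earliest mesoderm, and *Fgf8* encodes a growth factor that cells need to leave the streak. The GATA factors bind the same short DNA motif and act at several stages, *Gata2* and *Gata3* in blood progenitors, trophoblast and other lineages, and *Gata4* and *Gata6* in endoderm, heart and the somatic cells of the gonad. Germ cell precursors arise beside the posterior streak under Bmp and Wnt signals, pass through a phase in which some of these mesodermal genes are on, and then silence them.

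The depth was similar in both groups, with 8054596 to 12024841 counted reads per d6PGCLC library and 7991437 to 11166023 per PGC library. A count of 3 in a library, taken here as the limit of detection, corresponded to between 0.249 and 0.383 CPM (each gene's share of the counted reads, scaled with TMM library sizes to a total of 1000000), and this limit covers counting error only. Germ cell markers summed to between 5314 and 5817 CPM in d6PGCLCs and between 5310 and 5902 CPM in E12.5 PGCs, with *Dazl* and *Ddx4*, 2 genes of later germ cells, at 37.7 and 35.5 CPM in d6PGCLCs and 1262 and 760 CPM in PGCs. Differential expression was tested over all 21950 genes with edgeR's quasi-likelihood test and Benjamini-Hochberg adjustment. Calls needed an adjusted p of 0.05 or less together with a log2 fold change of 2 or more in size, and a negative fold change means a lower level in d6PGCLCs. By this test, 7 of the 13 germ cell markers were higher in d6PGCLCs and 4 lower at an adjusted p of at most 0.05. *Dazl* and *Ddx4* were called lower and *Fut9* higher, and the median log2 fold change of these markers was 0.65.

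Most of the 9 germ-layer regulators measured were lower in d6PGCLCs than in E12.5 PGCs. At the limit of detection were 4 of them in d6PGCLCs and 2 in PGCs, with 1 gene at it in both groups. Of the 9 genes, 8 were lower in d6PGCLCs at an adjusted p of at most 0.05 (*T*, *Mixl1*, *Mesp1*, *Evx1*, *Fgf8*, *Gata2*, *Gata3* and *Gata4*), against 15.4% of all genes and 19.9% of the 17010 genes with a count in any library. In all 8 the values of the groups did not overlap, which held for 14.8% of all genes in this direction. With the threshold on the fold change 4 were called lower (*T*, *Mesp1*, *Fgf8* and *Gata4*), against 3.37% of all genes and 4.35% of genes with a count. No d6PGCLC library held more than 3 counts of any of these 4, so that their fitted fold changes depend on the prior count of the fit, and with a prior count of 2 in place of 0.125 none of them passed the fold threshold. Filters on low counts removed all 4 from the test. None of the 9 was called higher in d6PGCLCs by edgeR, against 3.24% of all genes, nor was any higher at an adjusted p of at most 0.05, against 16.1%. At an unadjusted p under 0.05 there was 1 higher, *Eomes*, whose values did not overlap between the groups either, as was the case for 15.4% of all genes in that direction, and DESeq2 called 0 higher. The median log2 fold change of the 9 was -1.47, or -1.05 with genes at the limit of detection set to that limit, and the median over all genes with a count was -0.03 and 0.00 respectively. In bulk RNA, fewer cells that express a gene and less RNA per cell cannot be told apart.

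**Figure D1:**
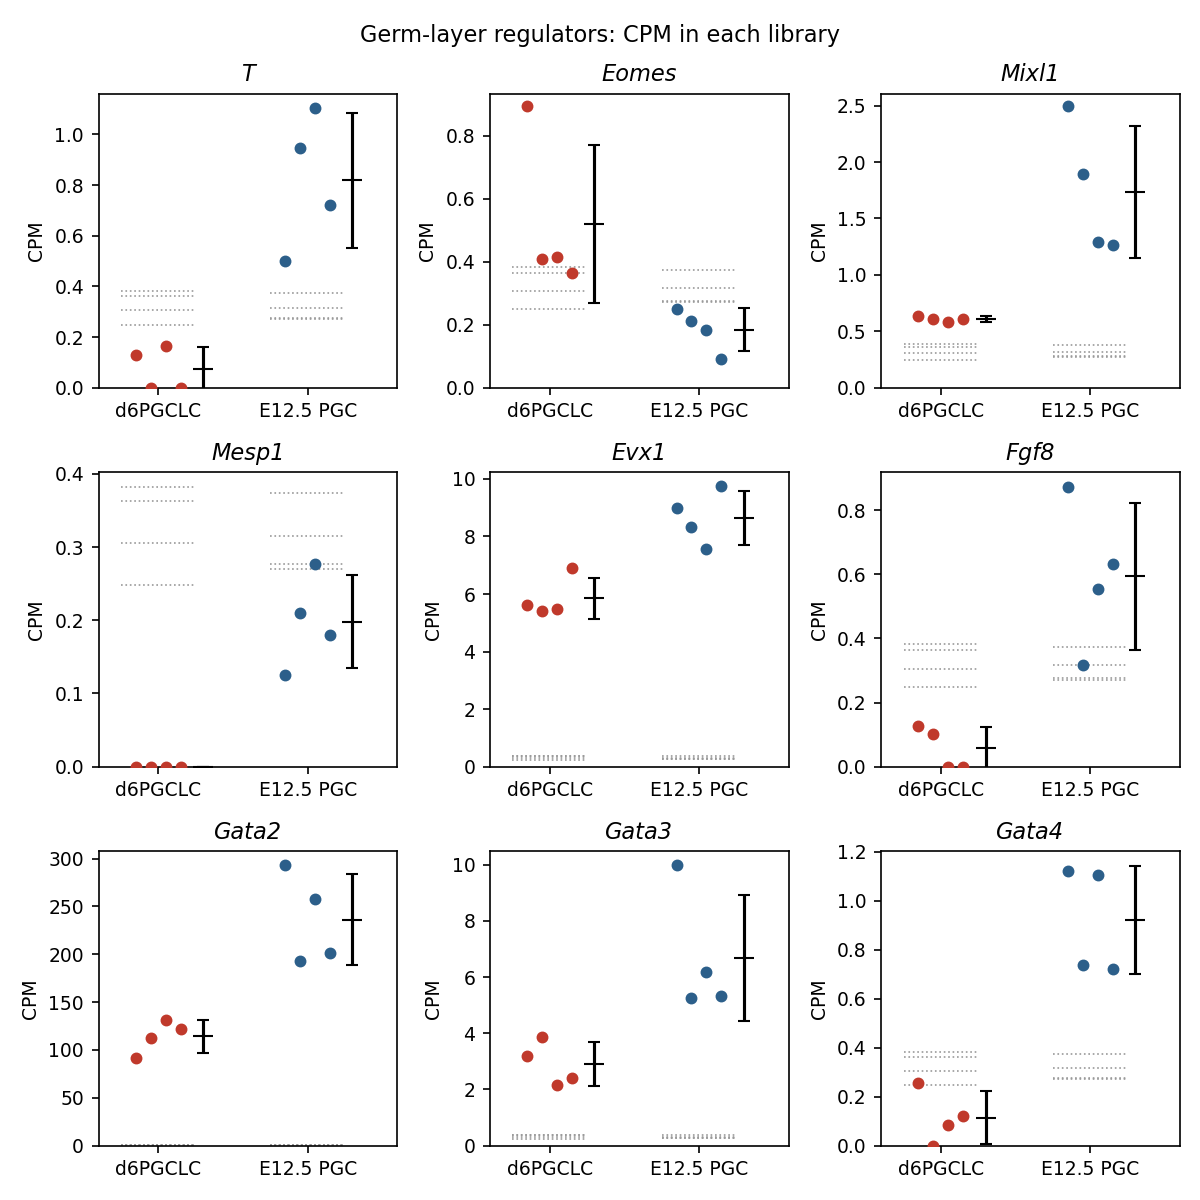
CPM of the 9 genes (vertical axes, each from 0 and with its own scale) in the 4 d6PGCLC libraries (red) and the 4 E12.5 PGC libraries (blue), with the mean and SD in black and the CPM that 3 counts give in each library as dotted lines. The groups do not overlap for any of the 9, and *Eomes* is the only one with the higher values in d6PGCLCs.

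*T* (Entrez 20997, chr17:8434423-8442496, plus strand), the founding T-box gene and a marker of nascent mesoderm, had 1, 0, 2 and 0 counts in d6PGCLC replicates 1 to 4. In E12.5 PGCs it had 4, 9, 12 and 8 counts. Every d6PGCLC library was thus at or below the limit of detection and every PGC library above it. The means were 0.0734 ± 0.0862 CPM in d6PGCLCs and 0.819 ± 0.265 CPM in PGCs (SD, n = 4). From summed counts, *T* was 10.6 times as high in PGCs, with a 95% interval for counting error from 3.32 to 53.95 (exact binomial), and the adjusted p of edgeR was 0.00158. The ratio rests on 3 reads in d6PGCLCs, and it was 21.7 without d6PGCLC replicate 3, which held 2 of them.

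*Eomes* (Entrez 13813, chr9:118478186-118486132, plus strand), the T-box factor of the anterior streak and definitive endoderm, ran the other way. It had 7, 4, 5 and 3 counts in d6PGCLCs and 2, 2, 2 and 1 in PGCs. Replicate 1 of the d6PGCLCs, at 0.894 CPM, stood above the other three, which lay between 0.364 and 0.415 CPM. All PGC libraries were at or below the limit of detection. The ratio of summed counts was 2.82 in favour of d6PGCLCs (95% interval 1.135 to 7.94, exact binomial, counting error only), but the adjusted p was 0.113 and the gene is not counted among those that changed. A non-coding antisense transcript overlaps 118 bases of its exons, and since the counting is not stated to use strand, the count of *Eomes* is uncertain.

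*Mixl1* (Entrez 27217, chr1:180693043-180697034, minus strand), a paired-like homeobox gene of the streak, had 5, 6, 7 and 5 counts in d6PGCLCs and 20, 18, 14 and 14 in PGCs. The d6PGCLC libraries were close together, with 0.609 ± 0.0235 CPM, while the PGC libraries ranged from 1.26 to 2.50 CPM with a mean of 1.74 ± 0.584 (SD, n = 4). Every PGC library lay above every d6PGCLC library, and replicate 1 was the highest of them. The log2 fold change was -1.47 ± 0.42 (SE) with an adjusted p of 0.00678.

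*Mesp1* (Entrez 17292, chr7:79792241-79793590, minus strand), which marks the first cardiac and cranial mesoderm, had no count in any d6PGCLC library and 1, 2, 3 and 2 counts in PGCs. Both groups were therefore at or below the limit of detection in every library, and no fold is given. Its adjusted p of 0.0270 rests on 8 reads. It was 0.0582 without d6PGCLC replicate 2, 0.0681 without d6PGCLC replicate 3, 0.0549 without d6PGCLC replicate 4, 0.0778 without PGC replicate 3 and 0.0501 without PGC replicate 4.

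*Evx1* (Entrez 14028, chr6:52313498-52318389, plus strand), the even-skipped homologue of the posterior streak, was the best counted of the streak genes. It stood at 5.62, 5.40, 5.48 and 6.91 CPM in d6PGCLCs and at 8.98, 8.31, 7.56 and 9.75 CPM in PGCs. The groups were separate but close, with the highest d6PGCLC library, replicate 4, just under the lowest PGC library, replicate 3. The log2 fold change was -0.57 ± 0.19 (SE) with an adjusted p of 0.0291, which became 0.0598 without d6PGCLC replicate 2, 0.0676 without d6PGCLC replicate 3, 0.0605 without PGC replicate 1 and 0.112 without PGC replicate 4. The antisense transcript *Evx1os* shares 73 exonic bases with *Evx1*, and whether reads of the 2 were kept apart is not stated.

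*Fgf8* (Entrez 14179, chr19:45736491-45742941, minus strand), the single secreted factor among these genes, had 1, 1, 0 and 0 counts in d6PGCLCs and 7, 3, 6 and 7 in PGCs. PGC replicate 2 reached no more than the limit of detection, and the other three PGC libraries lay above it. The means were 0.0574 ± 0.0671 and 0.594 ± 0.230 CPM (SD, n = 4), a ratio of summed counts of 11.1 in favour of PGCs (95% interval 2.735 to 96.9, exact binomial, counting error only) with an edgeR adjusted p of 0.00523. It was 17.6 without d6PGCLC replicate 1 and 16.4 without d6PGCLC replicate 2, each of which held 1 of the 2 d6PGCLC reads.

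*Gata2* (Entrez 14461, chr6:88193891-88207032, plus strand), a regulator of blood stem cells that is also on in trophoblast and neurons, was by far the most abundant of the 9 genes. It reached 91.5, 112.0, 131.8 and 121.5 CPM in d6PGCLCs. In PGCs it reached 292.8, 193.1, 257.7 and 201.2 CPM. The lowest PGC library exceeded the highest d6PGCLC library by more than the whole range of the d6PGCLC group. The means were 114 ± 17.1 and 236 ± 47.4 CPM (SD, n = 4), and the log2 fold change was -1.05 ± 0.13 (SE) with an adjusted p of 1.14e-06, so that the gene passed the test but not the fold threshold. Over all settings tried its log2 fold change lay between -1.27 and -0.93.

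*Gata3* (Entrez 14462, chr2:9857078-9887953, minus strand), which acts in trophectoderm, T cells and the kidney duct, was expressed at a low level. Its values were 3.19, 3.87, 2.16 and 2.42 CPM in d6PGCLCs and 9.98, 5.26, 6.18 and 5.33 CPM in PGCs. PGC replicate 1 was the highest here too, as it was for *Gata2*, *Gata4*, *Mixl1*, *Fgf8* and *Eomes*. The means were 2.91 ± 0.775 and 6.69 ± 2.24 CPM (SD, n = 4), and the log2 fold change was -1.19 ± 0.27 (SE) with an adjusted p of 0.00142. Exons of *Gata3* overlap an antisense transcript over 155 bases and another gene of the same strand over 77 bases, so that some of its reads may belong to these.

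*Gata4* (Entrez 14463, chr14:63198914-63271712, minus strand), a factor of endoderm and heart that is also a marker of gonadal somatic cells, had 2, 0, 1 and 1 counts in d6PGCLCs and 9, 7, 12 and 8 in PGCs. No d6PGCLC library exceeded the limit of detection and all PGC libraries did. The means were 0.115 ± 0.106 and 0.922 ± 0.223 CPM (SD, n = 4). The ratio of summed counts was 8.66 in favour of PGCs (95% interval 3.105 to 33.5, exact binomial, counting error only), with an edgeR adjusted p of 0.00134. Without d6PGCLC replicate 1 the ratio was 13.7.

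**Figure D2:**
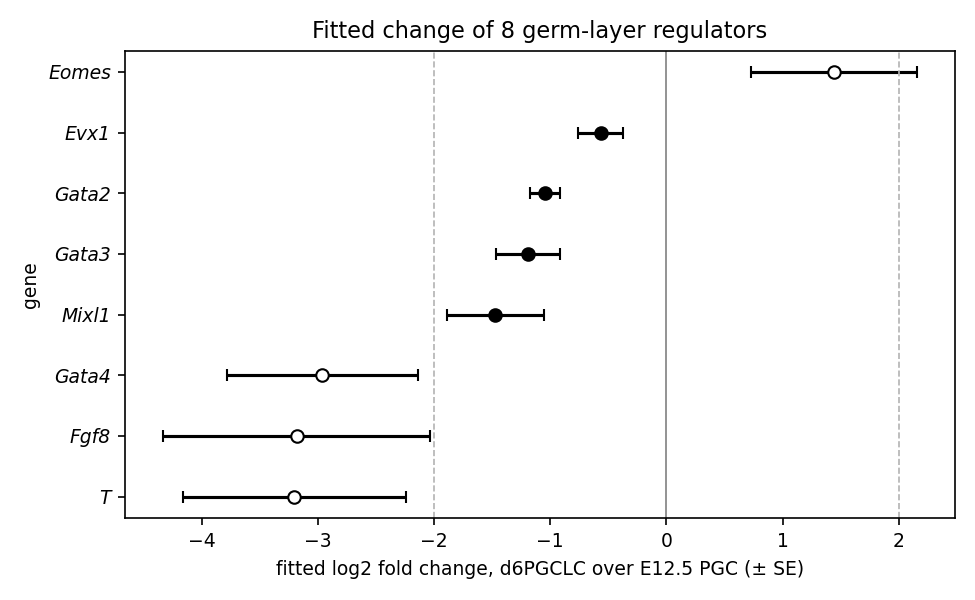
Fitted log2 fold changes (horizontal axis, d6PGCLC over E12.5 PGC, with the standard error) of 8 genes, without *Mesp1*, for which no standard error was obtained. Open circles are genes that never exceeded 3 counts in one of the groups, whose fitted values depend on the prior count, and dashed lines mark the threshold of 2. *Gata2* has the smallest error, and *Eomes* is the only gene to the right of 0.

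Markers of gonadal cells that are not germ cells were counted in the same libraries. Of 13 markers of gonadal somatic cells, 12 were in the table, and they summed to between 0.664 and 2.42 CPM in d6PGCLCs and to 8.23, 9.79, 5.35 and 4.24 CPM in PGC replicates 1 to 4. *Wt1*, *Emx2*, *Fst*, *Wnt4* and *Rspo1* were called lower in d6PGCLCs and none higher, while *Nr5a1*, which defines the steroidogenic somatic lineage, had 0.476 ± 0.357 CPM in PGCs against 0.113 ± 0.101 CPM in d6PGCLCs. *Emx2* and *Tcf21* had no count in any d6PGCLC library. *Gata4*, *T* and *Fgf8* were of the size of single somatic markers in PGCs, such as *Wt1* at 1.12 ± 0.575 CPM, and the part of somatic cells in their difference was not tested. Of 5 markers of mesonephric and coelomic epithelium, 4 were in the table, and they summed to between 0.415 and 1.28 CPM in d6PGCLCs and between 3.69 and 6.42 CPM in PGCs, most of it from *Pax8* at 4.97 ± 1.18 CPM.

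Markers of blood and endothelium, 2 tissues that use *Gata2*, were counted likewise. The 8 endothelial markers summed to between 61.9 and 89.3 CPM in d6PGCLCs and between 27.1 and 47.1 CPM in PGCs. Most of this came from *Egfl7*, *Tek*, *Cdh5* and *Cldn5*. Of these, edgeR called *Egfl7* higher in d6PGCLCs (log2 fold change 2.03, adjusted p = 2.69e-09). *Cdh5* and *Cldn5* were higher at an adjusted p of at most 0.05, and 0 of the 8 markers were lower. *Tek*, with a mean of 16.3 against 14.0 CPM, did not pass (edgeR adjusted p = 0.42). The receptors *Kdr* and *Tie1* were under 0.3 CPM in the mean of either group. Blood markers (5 of 8 in the table) reached 7.16 CPM in PGC replicate 2 and at most 3.06 CPM in any other library, with *Hba-x*, an embryonic globin, giving 61 of the 68 counts in replicate 2. In d6PGCLCs nearly all of the blood sum came from *Csf1r*, the macrophage growth factor receptor, which had 24, 20, 13 and 12 counts there and none in any PGC library, and edgeR called *Csf1r* higher and *Hba-x* lower in d6PGCLCs. Without PGC replicate 2 alone, 8 of the 9 genes had an edgeR adjusted p of at most 0.05, *Mesp1* at 0.0495 and *Evx1* at 0.044. Without PGC replicates 2 and 4 together, *Gata2* kept an adjusted p of at most 0.05, and so did *T*, *Mixl1*, *Fgf8*, *Gata3* and *Gata4*, while *Mesp1* (0.0998) and *Evx1* (0.197) did not. Fibroblast and mesenchymal markers summed to between 3.65 and 31.4 CPM in d6PGCLCs and between 1.48 and 6.31 CPM in PGCs, with overlap. Among them *Col1a1* was called higher in d6PGCLCs, with 6, 38, 3 and 97 counts against 1, 4, 2 and 1 in PGCs. *Pdgfrb* was higher at an adjusted p of at most 0.05, at 4.71 ± 1.47 against 1.18 ± 0.341 CPM without overlap, and 0 of these markers were lower. What part any of these cells had in the differences was not tested.

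**Figure D3:**
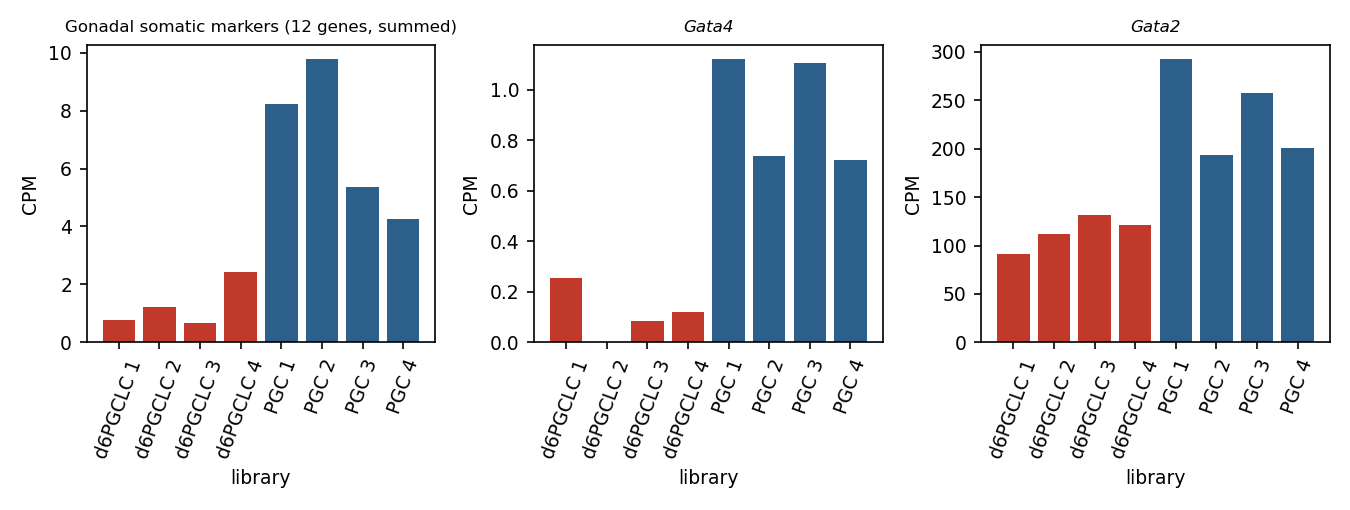
Summed CPM of 12 gonadal somatic markers, and CPM of *Gata4* and *Gata2*, in each library (bars from 0; red, d6PGCLC; blue, E12.5 PGC). All 3 are higher in every PGC library than in any d6PGCLC library.

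To compare genes with each other, levels were divided by the exonic length that was counted, which gives CPM per kb. In d6PGCLCs the order was *Gata2* (32.8 ± 4.92 CPM per kb), *Evx1* (1.95), *Gata3* (0.846), *Mixl1* (0.257) and *Eomes* (0.206), with *Fgf8*, *Gata4*, *T* and *Mesp1* at 0.0410 or less. Neighbours in this order did not overlap over the 4 libraries except *Mixl1* with *Eomes* and the genes from *Fgf8* on, each with the next. In PGCs it was *Gata2* (67.8 CPM per kb), *Evx1* (2.89), *Gata3* (1.94), *Mixl1* (0.733), *Fgf8* (0.424), *T* (0.346), *Gata4* (0.251), *Mesp1* (0.171) and *Eomes* (0.0729). There *Evx1* overlapped with *Gata3*, each of the genes from *Mixl1* to *Gata4* overlapped with the next, and *Eomes* came last. *Mesp1* and *Eomes* were both at the limit of detection in PGCs, so that their order rests on 1 to 3 reads per library and on the widths they were divided by. The first 4 places were held by the same genes in both groups. *Gata2* stood above 86.95% of all genes in d6PGCLCs and above 94.4% in PGCs, and *Evx1* above 56.96% and 60.5%.

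Promoter sequences were available for 6 of the 9 genes, 7 in all with 2 for *Gata2*, and they are shown because CpG-rich promoters are the usual sites of Polycomb silencing, by which germ-layer regulators are kept off in many cell types. The 250 bases before each start site follow, 5′ to 3′ on the strand of the gene, from RefSeq on GRCm38.p6, with every CpG in capitals. The *Gata2* promoters lie on the plus strand at chr6:88193641-88193890 and chr6:88198414-88198663, *Gata3* on the minus strand at chr2:9878601-9878850, *Evx1* on the plus strand at chr6:52313248-52313497, *T* on the plus strand at chr17:8434173-8434422, *Eomes* on the plus strand at chr9:118477939-118478188 and *Mesp1* on the minus strand at chr7:79793591-79793840. The second *Gata2* stretch and the *Gata3* stretch lie inside the extent of their genes given above, so that they precede internal start sites. The *Eomes* stretch ends at chr9:118478188, just past the gene start given above, 118478186. In the GENCODE annotation *Mesp1* starts further upstream, at chr7:79793788, so that much of its stretch lies inside the gene there. The CpG values of *Mesp1* therefore depend on the start site chosen.
Gata2, first start: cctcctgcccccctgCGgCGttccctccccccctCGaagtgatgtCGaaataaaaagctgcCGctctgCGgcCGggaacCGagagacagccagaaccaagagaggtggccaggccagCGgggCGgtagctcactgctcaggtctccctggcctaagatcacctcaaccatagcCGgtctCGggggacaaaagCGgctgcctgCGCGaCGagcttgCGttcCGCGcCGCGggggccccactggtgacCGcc
Gata2, second start: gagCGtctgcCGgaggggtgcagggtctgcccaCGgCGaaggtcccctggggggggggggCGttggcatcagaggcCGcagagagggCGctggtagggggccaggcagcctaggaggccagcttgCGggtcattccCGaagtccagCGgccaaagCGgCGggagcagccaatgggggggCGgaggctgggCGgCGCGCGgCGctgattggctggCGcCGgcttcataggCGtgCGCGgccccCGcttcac
Gata3: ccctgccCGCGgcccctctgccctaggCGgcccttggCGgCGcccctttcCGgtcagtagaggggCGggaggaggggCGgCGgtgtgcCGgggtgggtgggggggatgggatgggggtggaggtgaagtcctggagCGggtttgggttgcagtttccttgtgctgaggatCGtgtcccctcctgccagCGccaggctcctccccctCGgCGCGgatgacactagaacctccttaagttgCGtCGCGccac
Evx1: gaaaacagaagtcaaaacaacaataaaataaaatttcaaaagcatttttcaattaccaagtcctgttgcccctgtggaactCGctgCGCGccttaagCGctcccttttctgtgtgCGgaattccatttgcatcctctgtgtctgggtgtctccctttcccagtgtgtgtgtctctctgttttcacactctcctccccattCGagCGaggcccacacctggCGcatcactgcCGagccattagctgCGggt
T: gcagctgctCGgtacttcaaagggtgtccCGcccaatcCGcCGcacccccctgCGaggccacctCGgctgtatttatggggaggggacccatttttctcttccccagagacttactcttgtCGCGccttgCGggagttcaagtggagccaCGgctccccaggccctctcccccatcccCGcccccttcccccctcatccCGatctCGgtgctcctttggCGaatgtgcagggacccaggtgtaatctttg
Eomes: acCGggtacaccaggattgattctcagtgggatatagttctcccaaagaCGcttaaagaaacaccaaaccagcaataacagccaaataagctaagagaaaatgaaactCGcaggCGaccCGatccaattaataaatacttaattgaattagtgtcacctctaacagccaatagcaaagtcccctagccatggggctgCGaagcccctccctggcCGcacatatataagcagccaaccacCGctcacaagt
Mesp1: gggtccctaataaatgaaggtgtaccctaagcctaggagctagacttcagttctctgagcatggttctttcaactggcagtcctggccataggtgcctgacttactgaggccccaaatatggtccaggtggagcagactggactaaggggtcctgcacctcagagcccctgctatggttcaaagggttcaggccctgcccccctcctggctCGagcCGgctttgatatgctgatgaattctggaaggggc

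In these stretches the first *Gata2* promoter held 22 CpG and the second 24, *Gata3* held 19, *T* 14, *Evx1* 10, *Eomes* 8 and *Mesp1* 2, against a median of 6 over the 32851 promoters of the reference. The observed number of CpG over that expected from base composition, taken over the 250 bases before and the 50 bases after the start, was 0.900 and 0.760 for *Gata2*, 0.710 for *Evx1*, 0.658 for *Gata3*, 0.607 for *Eomes* and for *T* and 0.174 for *Mesp1*. The median of the 7 was 0.658 against 0.384 over all promoters, and 6 of 7 reached 0.6 against 35.8% of all. Among the 6 genes with a promoter sequence, *Gata2* thus had the CpG-richest promoter and *Mesp1* the poorest. Whether CpG content goes with level was not tested. Neither GATAA, one form of the GATA motif, nor GGTGTGA, the core of the T-box half-site, was found on either strand of the 250 bases in any of the 7, against 22.6% and 3.33% of all promoters. This says only that these letters are not in these windows. Other forms were not counted, and the shorter GATA does occur in the *Eomes* and *Mesp1* stretches. Which of the *Gata2* start sites was used cannot be read from counts per gene.

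**Figure D4:**
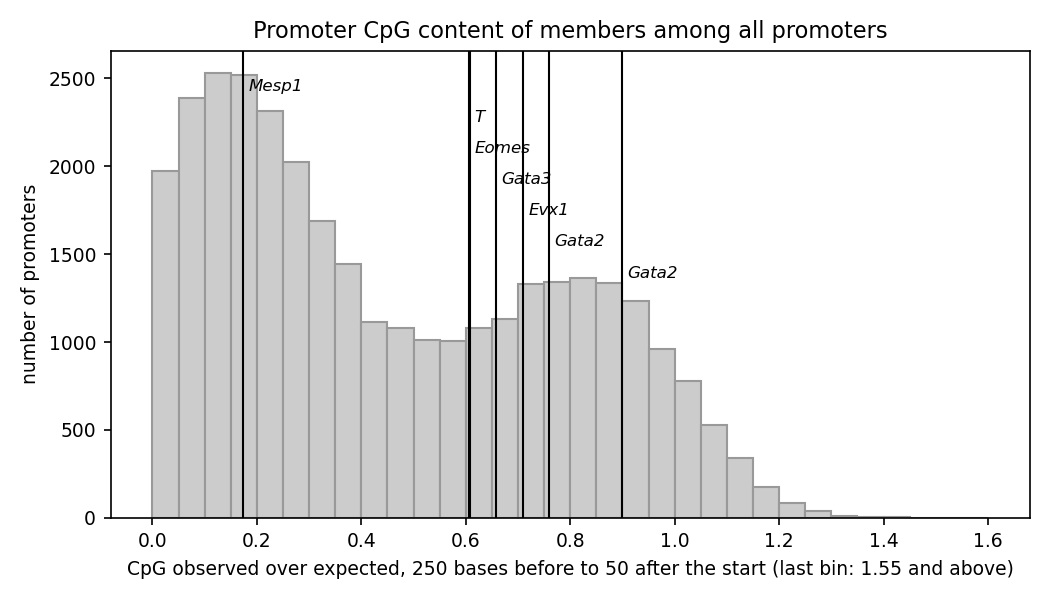
Distribution of the CpG observed over expected ratio (horizontal axis) over 32851 RefSeq promoters from 250 bases before to 50 bases after the start (grey bars, number of promoters), with the 7 promoters of 6 germ-layer regulators as lines. *Mesp1* lies at 0.174 in the CpG-poor part, and the other 6 lie between 0.607 and 0.900.

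Within the T-box family the low level of *T* and *Eomes* was not shared by every member. All 17 genes of the list were in the table, and 8 of them were at the limit of detection in both groups. *T*, *Tbx1*, *Tbx4* and *Tbx18* were lower in d6PGCLCs at an adjusted p of at most 0.05, and *Tbx6*, a gene of paraxial mesoderm, was higher, at 2.18 ± 0.591 CPM against 0.689 ± 0.229 CPM (SD, n = 4, log2 fold change 1.62 ± 0.40, SE). *Tbx4*, known from the hindlimb bud, was the most abundant per kb in PGCs, with 73.9 ± 28.9 CPM against 271 ± 8.65 CPM (log2 fold change -1.88 ± 0.17, SE, adjusted p = 2.13e-08). *Tbx1*, a pharyngeal mesoderm gene, was called lower, with 0.788 ± 0.217 and 6.66 ± 0.718 CPM and a log2 fold change of -3.09 ± 0.31 (SE, adjusted p = 2.77e-08). *Mga*, a T-box protein of a repressor complex that keeps germ cell genes silent, was at 37.4 ± 11.1 and 50.1 ± 9.09 CPM with an adjusted p of 0.0574. *Tbx18* had no count in d6PGCLCs and stayed at the limit of detection in PGCs.

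The GATA factors and their partners differed among themselves. Of 16 listed genes 13 were in the table, 6 of which were lower in d6PGCLCs at an adjusted p of at most 0.05 (*Gata2*, *Gata3*, *Gata4*, *Lyl1*, *Lmo1* and *Lmo2*) and 1 higher (*Zfpm1*), and the median log2 fold change was -2.39, or -0.12 with genes at the limit of detection set to that limit. *Zfpm1*, which encodes FOG-1, the cofactor that binds GATA1 and GATA2, had 112 ± 33.0 CPM in d6PGCLCs against 73.7 ± 12.3 CPM in PGCs, with overlap between the groups (log2 fold change 0.61 ± 0.15, SE, adjusted p = 0.00337). *Ldb1*, the bridging protein of the blood GATA complex, was abundant in both at 234 ± 25.4 and 276 ± 14.8 CPM, with an adjusted p of 0.0560. *Lmo2*, another subunit of that complex, was called lower, with 0.249 ± 0.176 and 4.63 ± 0.706 CPM and a log2 fold change of -4.21 ± 0.54 (SE), and so was *Lmo1*, with 0.341 ± 0.216 and 2.62 ± 0.501 CPM. *Tal1*, the helix-loop-helix partner of GATA factors in blood, was at 0.0303 ± 0.0606 and 0.238 ± 0.336 CPM with an adjusted p of 0.147, and *Gata1* at 0.0255 ± 0.0509 and 0.163 ± 0.249 CPM with an adjusted p of 0.315. Most of their PGC reads, with counts of 1, 7, 1 and 0 for *Tal1* and 1, 5, 0 and 0 for *Gata1*, were in replicate 2, the library with the highest blood marker sum.

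*Fgf8* has 2 close relatives, *Fgf17* and *Fgf18*, and both were called lower in d6PGCLCs as well. *Fgf17* was at 0.496 ± 0.463 and 2.98 ± 0.811 CPM (log2 fold change -2.68 ± 0.51, SE, adjusted p = 9.87e-05), the d6PGCLC mean being 0.279 CPM without replicate 1, and *Fgf18* at 0.139 ± 0.0715 and 1.09 ± 0.233 CPM. The FGF receptors and the feedback genes that FGF signals induce went both ways. Of the 13 genes of the list 6 passed the test in each direction, lower being *Fgf8*, *Fgf17*, *Fgf18*, *Fgfr3*, *Spry1* and *Etv4* and higher *Fgfr2*, *Fgfr4*, *Spry2*, *Spry4*, *Dusp6* and *Etv5*, and the median log2 fold change was 0.08. *Etv5*, a transcription factor that reports FGF signalling, reached 768 ± 68.9 CPM in d6PGCLCs against 523 ± 33.6 CPM in PGCs.

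**Figure D5:**
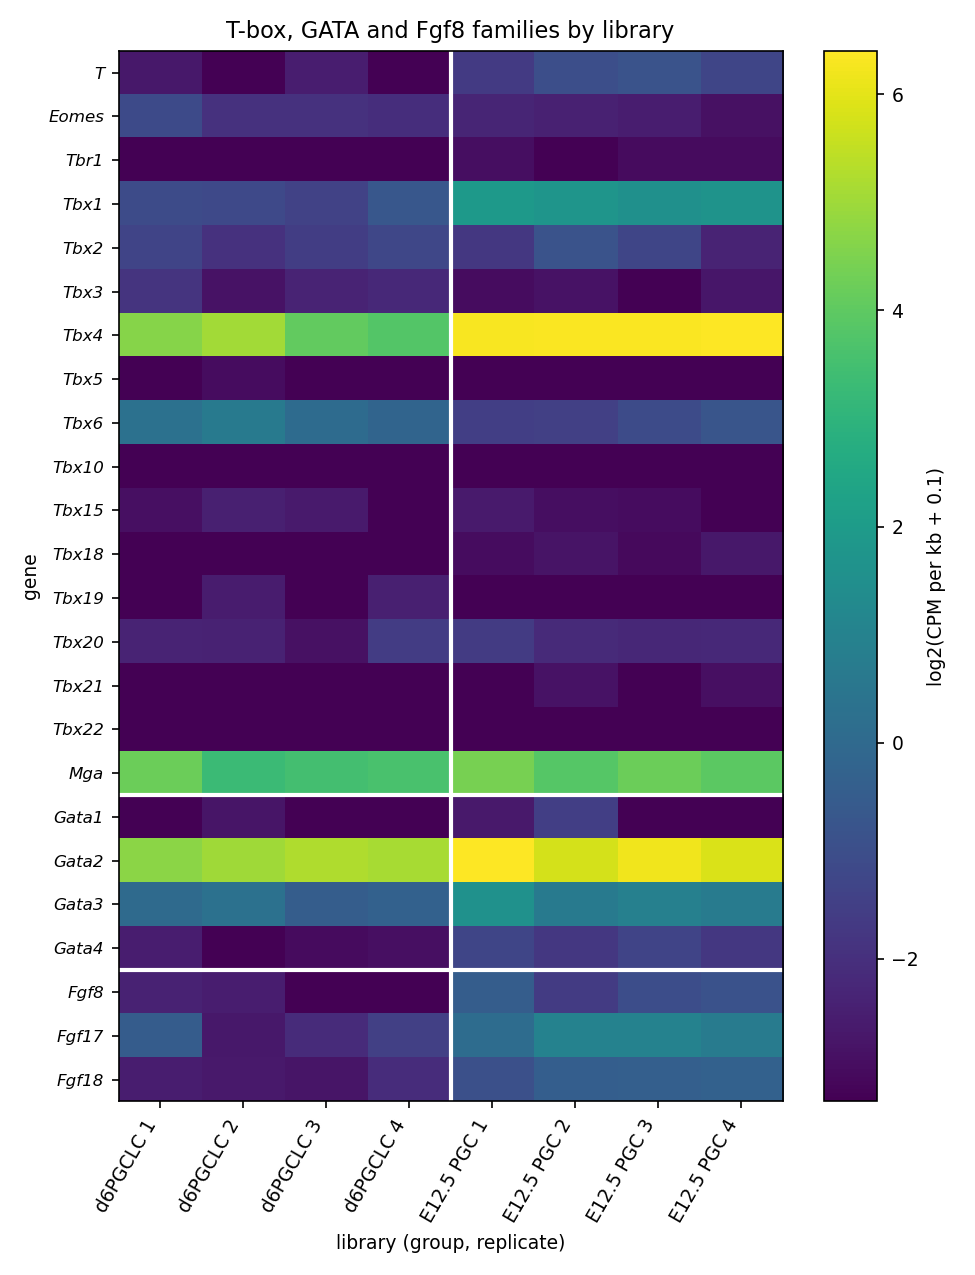
Level of each T-box gene, GATA factor and *Fgf8* subfamily member as log2(CPM per kb + 0.1) (colour) in the 8 libraries (columns: 4 d6PGCLC, then 4 E12.5 PGC). *Tbx4*, *Mga* and *Gata2* are bright in all libraries, and *T*, *Gata4* and *Fgf8* are dark in d6PGCLCs and slightly brighter in PGCs.

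Other genes of the early mesoderm were counted beside the 9. Of 26 listed genes 25 were in the table, 8 of them at the limit of detection in both groups, and 10 were lower and 1 higher (*Tbx6*) at an adjusted p of at most 0.05. With the fold threshold 6 were called lower (*Hand1*, *Snai1*, *Twist1*, *Foxc1*, *Foxf1* and *Pdgfra*) and 0 higher, and the median log2 fold change was -1.24, or 0.00 with genes at the limit of detection set to that limit. *Hand1*, a factor of extraembryonic and lateral mesoderm and of trophoblast, was the best counted of these, with 0.548 ± 0.284 CPM in d6PGCLCs and 8.26 ± 1.32 CPM in PGCs (log2 fold change -3.92 ± 0.38, SE, adjusted p = 4.60e-09). No d6PGCLC library held more than 3 counts of *Twist1*, *Foxc1*, *Foxf1* or *Pdgfra*, so that their fitted fold changes depend on the prior count. *Foxf1* was at the limit of detection in PGCs too. *Foxc1* overlapped between the groups, with 11, 1, 3 and 3 counts in PGCs. The caudal genes *Cdx1* and *Cdx2*, which pattern the posterior body, were lower without reaching the fold threshold, *Cdx2* at 22.2 ± 10.9 against 43.1 ± 4.84 CPM.

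Endoderm genes went in both directions. Of 21 listed genes 19 were in the table, with 7 called lower in d6PGCLCs and a median log2 fold change of 0.00. *Pth1r*, a receptor of parietal endoderm, was called higher, with 11.1 ± 2.24 against 2.49 ± 1.00 CPM (log2 fold change 2.15 ± 0.26, SE). *Hhex*, a homeobox gene of the anterior endoderm and blood vessels, was called lower, with 1.14 ± 0.195 against 7.07 ± 1.41 CPM (log2 fold change -2.62 ± 0.28, SE), and *Cubn*, an endocytic receptor of visceral endoderm, with 6.37 ± 3.41 against 38.3 ± 13.2 CPM. *Sox17* and *Foxa2*, which define the definitive endoderm, were called lower too, at 0.285 ± 0.273 against 1.24 ± 0.518 CPM and at 0.215 ± 0.206 against 1.45 ± 0.623 CPM. Without d6PGCLC replicate 4 their d6PGCLC means were 0.178 and 0.126 CPM.

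The signals that switch these regulators on at the streak were mixed. All 24 listed genes were in the table, 8 of them higher and 7 lower at an adjusted p of at most 0.05. Called higher in d6PGCLCs were *Tdgf1*, the Nodal co-receptor, with 131 ± 16.2 against 6.32 ± 1.88 CPM (log2 fold change 4.35 ± 0.16, SE), *Bmp4* with 32.3 ± 4.42 against 2.67 ± 0.303 CPM, and the Nodal inhibitors *Lefty1* and *Lefty2*, the latter with 130 ± 38.9 against 12.4 ± 7.07 CPM. *Nodal* itself passed the test with 46.4 ± 11.02 against 20.2 ± 5.11 CPM (log2 fold change 1.20 ± 0.18, SE). Among the Wnt targets *Sp5* was called lower, with 0.171 ± 0.138 against 2.90 ± 1.12 CPM, and *Axin2* passed the test without the fold threshold, at 52.5 ± 11.6 against 135 ± 16.1 CPM (log2 fold change -1.36 ± 0.13, SE). *Id1*, a target of Bmp signals, was called lower at 17.0 ± 2.96 against 83.8 ± 14.7 CPM, and *Bmp2* was called lower at 0.0861 ± 0.115 against 0.744 ± 0.371 CPM, on 3 reads in d6PGCLCs, with a d6PGCLC mean of 0.0339 CPM without replicate 4.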

How the data were processed

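Each of the 8 pools gave 1 stranded poly(A) library, sequenced from one end. Alignment by the authors was with STAR to GRCm38 (the labels also name mm10), and from uniquely mapped reads they deposited raw counts per gene over the exons of 1 isoform chosen at random for each gene, without normalization, together with the exonic width in base pairs. The random isoform can lower a count, reads of near-identical paralogs are lost, and whether the counting used strand is not given in the sources used here. Depth sets the precision: 3 counts in a library were taken as the limit of detection, and levels at or below it are not resolved in a single library.

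Counts were normalized with TMM and tested in R 4.3.3 with the quasi-likelihood functions of edgeR 4.0.16 (prior count 0.125, no covariate beside cell type, no low-count filter) over all 21950 genes. Symbols were matched by Entrez identifier for 21907. All count columns were mapped to samples. CPM use TMM library sizes, and CPM per kb use the deposited width. Intervals of count ratios are exact binomial. Promoters are from RefSeq on GRCm38.p6. P-values measure the spread between pools from independent experiments, and libraries of a group differed beyond counting noise (chi-square over degrees of freedom between 3.19 and 20.8). Replicate numbers were taken as names only, since same-numbered libraries did not all deviate together (r from -0.0382 to 0.302).

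The members and gene lists were chosen with earlier results of these data known. Named are all members, per list the 3 genes in each direction that changed most among those called and averaging 10 counts or more, genes counted one by one, and markers whose counts stand beside a member, except 1 list gene that is left out of the text. Alternatives were other tests (likelihood ratio, DESeq2 1.42.0, glmTreat), normalizations, filters, a prior count of 2, a replicate block, a stricter threshold, other limits of detection, and left-out libraries. Count ratios and d6PGCLC means of a few genes without single libraries were added after the data had been seen. The steps were tested on simulated counts.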

Additional observations from a re-analysis of the deposited data

Results flagged for a closer look

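Of 30 sets of 4 libraries, 6 had a highest or lowest library that stood apart from the other three by Dixon's criterion, where chance gives about 1 in 20. *Eomes* was at 0.8935 CPM in d6PGCLC replicate 1, with the nearest library at 0.415 CPM. *Evx1* was at 6.909 CPM in d6PGCLC replicate 4, with the nearest at 5.62 CPM. The germ cell markers summed to 5314 CPM in d6PGCLC replicate 1 (nearest 5735) and to 5310 CPM in PGC replicate 2 (nearest 5832). The blood markers summed to 7.156 CPM in PGC replicate 2 (nearest 0.812), and the fibroblast and mesenchymal markers to 6.314 CPM in the same library (nearest 2.12). Without d6PGCLC replicate 4 the adjusted p of *Evx1* was 0.0222.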

How the results depend on the processing

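The number of genes called, 4 and all lower, became 0 with a filter on CPM (above 1 in at least 3 samples), 0 with filterByExpr and 0 with a prior count of 2. Either filter left 4 genes to test, *Evx1*, *Gata2*, *Gata3* and *Mixl1*, so that the called genes were not tested there. The number past an adjusted p of 0.05, 8 as reported, became 4 with either filter and 3 with glmTreat, which tests against an absolute log2 fold change of 1. With 1 library left out in turn, between 3 and 4 genes were called and between 6 and 8 passed the adjusted p. No gene was called higher under any of the 20 settings. With the replicate block 3 genes were called and 7 passed the adjusted p, *Mesp1* having an adjusted p of 0.108. The same-numbered libraries do not all correlate best with each other, so that this block rests on the numbers alone. DESeq2 called 3 lower and gave no adjusted p for *Mesp1*. *T*, *Fgf8* and *Gata4* passed the adjusted p in all 18 settings that tested them, and *Eomes* in none of 18. No member reversed its direction. The CpG ratio of the promoters had a median of 0.633 over the bases before the start alone. With 10 counts as the limit of detection, 6 genes were at it in d6PGCLCs and 3 in PGCs. Depth limits *T*, *Eomes*, *Mesp1*, *Fgf8* and *Gata4*, whose libraries held at most 12 counts each.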

Other observations

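A list of 10 trophectoderm genes, a lineage that uses *Gata2* and *Gata3*, had 1 gene called higher and 2 lower in d6PGCLCs. *Tead4*, the factor that sets up the trophectoderm, was called higher, at 11.9 ± 10.4 CPM against 0.544 ± 0.338 CPM in PGCs (SD, n = 4, edgeR adjusted p = 8.98e-07), with a d6PGCLC mean of 6.72 CPM without replicate 1, and *Elf5*, a trophoblast stem cell factor, was called lower, at 0.0207 ± 0.0415 against 1.52 ± 0.179 CPM. The epithelial keratin *Krt18* was at 8.98 ± 2.85 against 14.8 ± 2.11 CPM, and *Ascl2*, a gene of the placental spongiotrophoblast, at 1.34 ± 0.770 against 4.60 ± 1.13 CPM, both past an adjusted p of 0.05 and short of the fold threshold. *Ets2* did the same in the other direction, at 30.1 ± 7.01 against 17.5 ± 3.27 CPM. Of the 10 genes, 2 were higher and 5 lower in d6PGCLCs at an adjusted p of at most 0.05.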
